A study of Mus musculus with 12 samples.

Results

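The genes described here decide whether a dividing cell passes from G1 into S phase: the D cyclins Ccnd1, Ccnd2 and Ccnd3, their kinase partner Cdk6, the CDK inhibitors Cdkn1a, Cdkn1b, Cdkn2c and Cdkn2d, and the pocket proteins Rb1 and Rbl2. They were chosen by name, with earlier results of these data known. Every probe set of the deposited array table whose annotation names 1 of these genes and no other was taken. This gave 26 probe sets for 10 genes, of 45101 probe sets and 18194 named genes in all. Of the 26, 23 lay above the filter on low signal, with at least 1 for each of the 10 genes. Where a gene has several probe sets, the one with the highest mean over the arrays was used. Other sets above the filter are given where they differ, and sets below it are not described.

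The cells were I/11, a mouse pro-erythroblast line labelled as expanding erythroid progenitors. All were kept in serum-free medium with erythropoietin (EPO), the cytokine SCF and dexamethasone. Stable lines were made with lentiviral pLKO vectors carrying puromycin resistance: 1 with a scrambled hairpin (scr) and 2 with different short hairpins against Plcg1, the gene of phospholipase C gamma 1 (sh14 and sh133). Each line was profiled on 1 Affymetrix whole-genome mouse array (Mouse430_2) at each of 1, 6, 12 and 22 h, 12 arrays in all. The starting event of the hours is not given in the labels, nor whether a line is 1 clone, nor whether the 4 arrays of a line are separate cultures, so the p-values measure only the spread between these arrays. The array titles carry 2 different dates, whose meaning the labels do not give. One title date set holds the 4 sh14 arrays with the 6 and 12 h arrays of sh133, and the other holds the 4 scr arrays with the 1 and 22 h arrays of sh133. Thus sh14 and scr share no title date set, whereas within a line the 1 and 22 h arrays share one. The question posed by the design is how loss of phospholipase C gamma 1 alters gene expression in erythroid progenitors.

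As background, D cyclins bind and activate Cdk4 and Cdk6, which phosphorylate the pocket proteins and so release E2F factors to switch on S phase genes. The INK4 inhibitors (Cdkn2c, Cdkn2d) bind Cdk4 and Cdk6 directly, while the CIP/KIP inhibitors (Cdkn1a, Cdkn1b) act on cyclin-CDK complexes more broadly. Red cell precursors divide while they mature, and leave the cell cycle at the end of that course.

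Values are RMA signals on the log2 scale. They ranged from 0.04 to 13.1 over all arrays, with array medians of 1.84 to 1.92. Plcg1 itself, the hairpins' target, was 0.24 ± 0.17 (SE) log2 lower in the hairpin lines together than in scr, which did not pass (log2 difference -0.24, limma adjusted p = 0.592). This check of the labels therefore gave no call. Of 8 measured erythroid markers 7 were above the filter, but so were 7 of 8 mast cell markers. Unlogged, the erythroid list summed to 2275 to 4963 in scr, 1902.5 to 3581 in sh14 and 2283 to 4084 in sh133. Probe sets shared by the adult alpha globin genes read 9.70 to 13.1 and the set shared by beta globin genes 12.0 to 12.7. Summed unlogged signals of the macrophage (16.0 to 20.4), neutrophil (11.7 to 14.2) and lymphoid lists (8.72 to 11.7) were low on every array. Mast cell markers summed to 106 to 768 in scr, 161 to 445 in sh14 and 87.4 to 544 in sh133. In scr, Hdc (mean 7.91 log2) and Gata2 (5.01) were the brightest of them, and the rest had means of 0.92 to 1.97. Megakaryocyte markers summed to 63.6 to 108 in scr, 193 to 277 in sh14 and 113 to 285 in sh133. In RNA from whole cultures, fewer cells of a type and less RNA per cell cannot be told apart.

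Between 1 h and 22 h, 4 of the 10 genes rose (Rb1, Ccnd3, Cdkn2c and Cdkn2d) and 1 fell (Cdkn1a). Over all 12673 genes tested, 18.1% were called in this comparison: 8.74% were higher at 22 h and 9.34% lower. The median of the 10 genes was 0.15 log2, against 0.02 over all genes tested. Because the 10 genes were chosen with earlier results of these data known, such comparisons with all genes are descriptions only. At 6 h against 1 h, 2 of the 10 were called, against 4.86% of all genes. At 12 h against 1 h, 3 of the 10 were called, against 7.06% of all genes. Between the hairpin lines, sh14 against sh133, 1 gene was higher (Ccnd2) and 2 were lower (Cdkn2c and Cdkn1a), with 14.6% of all genes called (7.54% higher and 7.11% lower). No gene of the 10 was called against scr, and those comparisons are described with each gene. A call means a Benjamini-Hochberg adjusted p under 0.05 over all genes tested, from limma with line, time and title date set as terms.

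**Figure D1:**
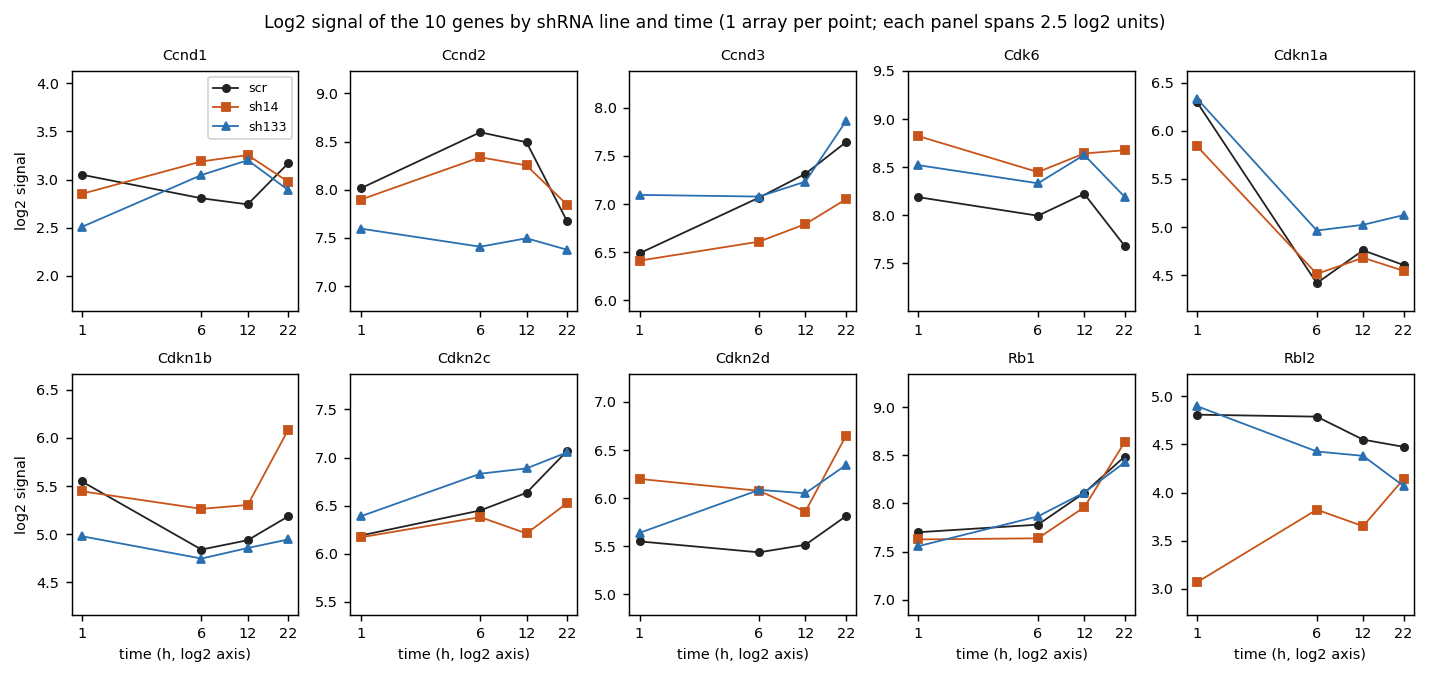
Log2 RMA signal of the brightest probe set of each of the 10 genes at 1, 6, 12 and 22 h, with 1 point per array and 1 line per cell line (scr, sh14, sh133). Cdkn1a is highest at 1 h and Rb1 at 22 h in all 3 lines, Cdk6 is lowest in scr at every time, and Rbl2 is lowest in sh14 at 1, 6 and 12 h.

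Of the 10 genes, Cdkn1a had the largest differences from 1 h at 6, 12 and 22 h. It encodes p21, an inhibitor of cyclin-CDK complexes. Its promoter windows are shown first, with 1 window each of Ccnd3 and Cdkn2c, as examples among the genes called with time: the window of each with the most motif matches. The table of RefSeq promoters (build GRCm38.p6) held 10 starts for 7 of the 10 genes. Each window is the 250 bases before a start, written 5' to 3' on the gene's strand, with motif matches in capitals. The windows are Cdkn1a distal at chr17:29090729-29090978 (plus strand), Cdkn1a proximal at chr17:29093519-29093768 (plus strand), Ccnd3 distal at chr17:47504801-47505050 (plus strand) and Cdkn2c distal at chr4:109666757-109667006 (minus strand).
Cdkn1a distal: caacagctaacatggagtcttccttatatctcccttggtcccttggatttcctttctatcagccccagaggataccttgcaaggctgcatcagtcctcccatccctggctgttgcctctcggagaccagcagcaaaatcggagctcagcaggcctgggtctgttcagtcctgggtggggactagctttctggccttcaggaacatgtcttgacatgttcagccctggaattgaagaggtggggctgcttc
Cdkn1a proximal: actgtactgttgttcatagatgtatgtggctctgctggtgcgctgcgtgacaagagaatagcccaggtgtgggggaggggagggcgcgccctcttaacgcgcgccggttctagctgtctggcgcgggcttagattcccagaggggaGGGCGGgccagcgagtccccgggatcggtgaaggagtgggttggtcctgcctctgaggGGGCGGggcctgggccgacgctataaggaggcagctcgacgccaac
Ccnd3 distal: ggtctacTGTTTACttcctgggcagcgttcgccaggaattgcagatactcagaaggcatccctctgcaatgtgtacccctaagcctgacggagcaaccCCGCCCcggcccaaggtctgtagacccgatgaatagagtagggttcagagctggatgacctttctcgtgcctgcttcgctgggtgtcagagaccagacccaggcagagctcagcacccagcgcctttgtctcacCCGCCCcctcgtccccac
Cdkn2c distal: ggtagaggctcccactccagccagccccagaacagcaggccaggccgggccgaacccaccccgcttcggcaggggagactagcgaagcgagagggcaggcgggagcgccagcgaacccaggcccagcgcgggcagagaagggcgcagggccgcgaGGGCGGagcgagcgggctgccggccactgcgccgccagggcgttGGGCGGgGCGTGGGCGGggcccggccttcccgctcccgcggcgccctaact
The distal window of Cdkn1a held none of the 7 motifs searched, and the proximal window held 2 SP motifs (GGGCGG). The distal window of Ccnd3 held a FOXO motif (TGTTTAC) at -243 to -237 and 2 SP motifs on the other strand. The distal window of Cdkn2c held an EGR motif (GCGTGGGCG or GCGGGGGCG) at -44 to -36, which overlaps 1 of its 3 SP motifs. Of the windows not printed, that of Cdkn2d held 3 SP motifs, that of the other Ccnd3 start 1, and that of the other Cdkn2c start none of the 7 motifs. Motifs were searched on both strands. Over the 10 windows, SP motifs were in 6, against 32.7% of all 32851 promoters of that table. FOXO was in 1 (3.17% of all), EGR in 1 (3.06%) and the E-box CACGTG in 1, that of Cdk6 (6.02%). None of the 10 windows held an E2F motif (TTTGGCGC, TTTCCCGC, TTTCGCGC or TTTGCCGC, 1.86% of all), a STAT motif (TTCNNNGAA, 7.02%) or a GATA motif (AGATAA, 9.99%). A match is a run of letters in the window and shows no binding.

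Cdkn1a read 6.29, 4.42, 4.76 and 4.61 at 1, 6, 12 and 22 h in scr. In sh14 it read 5.84, 4.51, 4.68 and 4.55, and in sh133 6.33, 4.96, 5.02 and 5.12. The 3 arrays at 1 h stood above the other 9 without overlap, and from 6 h on every array lay between 4.42 and 5.12. It fell by 1.52 ± 0.13 (SE) log2 at 6 h (adjusted p = 0.000907), a 2.87-fold lower signal. The falls at 12 h (-1.33 ± 0.13, adjusted p = 0.000863) and 22 h (-1.40 ± 0.12, adjusted p = 6.45e-05) were of similar size. The second Cdkn1a probe set followed the first (r = 0.986 over the 12 arrays) and fell by 1.48 log2 at 22 h (14.9% of all probe sets were called in that comparison). All 3 time calls held with any 1 array left out.

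In sh14, Cdkn1a was lower than in sh133 at all 4 times. The difference was -0.46 ± 0.14 log2 (adjusted p = 0.0487), just inside the threshold. It was called again only without scr at 1 h or scr at 22 h, and leaving out any other array gave adjusted p of 0.0539 to 0.416. In a fit of all probe sets above the filter (the probe set fit), where 10.1% were called in this comparison, neither Cdkn1a set passed (adjusted p = 0.0665 and 0.0740). Against scr, sh133 was 0.34 ± 0.14 higher without passing (adjusted p = 0.222), and without scr at 1 h this became 0.52 (adjusted p = 0.0415). Without the title date set term it was 0.34 and was called (adjusted p = 0.0450). The estimate for Cdkn1a in sh14 against scr was -0.12 ± 0.21 (adjusted p = 0.845). The genes most like Cdkn1a over the 12 arrays were Dusp10 (r = 0.974), a MAP kinase phosphatase, Per1 (0.972), a circadian clock gene, and Egr1 (0.961), an immediate early transcription factor. Such correlations are descriptions over 12 arrays that share time, line and title date set.

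The other CIP/KIP gene, Cdkn1b, encodes p27, which holds cells in G1. It read 5.55, 4.84, 4.94 and 5.18 in scr at 1, 6, 12 and 22 h, 5.45, 5.26, 5.30 and 6.08 in sh14, and 4.98, 4.75, 4.86 and 4.94 in sh133. Only sh14 ended above its 1 h level, by 0.64, and its 22 h array was the highest of the 12. The difference at 22 h over the 3 lines was 0.08 ± 0.15 (adjusted p = 0.767). Its values at 6 h (-0.48 ± 0.17, adjusted p = 0.158) and 12 h (-0.40 ± 0.17, adjusted p = 0.217) did not pass, and became -0.73 (adjusted p = 0.0296) and -0.65 (adjusted p = 0.0334) without sh14 at 1 h.

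Between the hairpin lines, Cdkn1b was 0.48 ± 0.18 log2 higher in sh14 (adjusted p = 0.100), higher at 4 of 4 times. The call is reached without scr at 1 h (0.54, adjusted p = 0.0404) or sh14 at 1 h (0.56, adjusted p = 0.0199). It is also reached without the title date set term (0.64, adjusted p = 0.00549). Cdkn1b lies on chromosome 6, and its 40 nearest tested genes, 20 on each side, had a median of 0.37 in the same comparison. Of these, 15 were called higher and 0 lower, among them its neighbour Gpr19 (0.78, adjusted p = 0.00135). Over all genes tested, 7.54% were higher and 7.11% lower. The part of these neighbours in the result was not tested. Against scr, Cdkn1b in sh133 was below at 4 of 4 times (-0.57 to -0.08). The estimate was -0.41 ± 0.18 (adjusted p = 0.265), and that for sh14 was 0.08 ± 0.27 (adjusted p = 0.930). Neither passed.

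**Figure D2:**
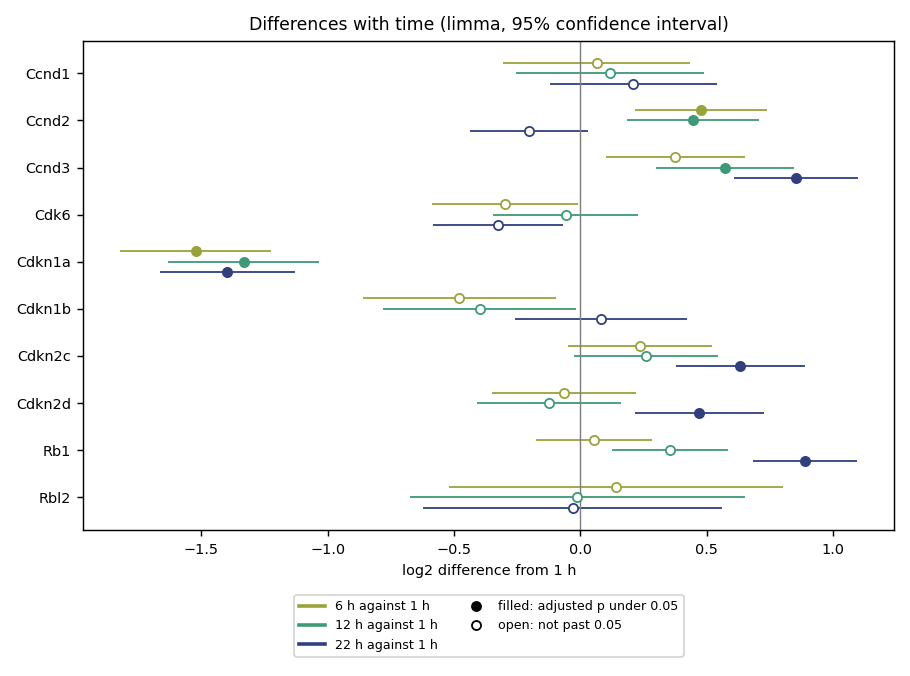
Log2 difference from 1 h at 6, 12 and 22 h for the 10 genes, as limma estimates over the 3 lines with 95% confidence intervals. Filled points passed an adjusted p of 0.05: Cdkn1a at all 3 times, Ccnd2 at 6 and 12 h, Ccnd3 at 12 and 22 h, and Cdkn2c, Cdkn2d and Rb1 at 22 h.

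The INK4 genes Cdkn2c and Cdkn2d rose by 22 h, whereas the INK4 genes Cdkn2a (-0.27, adjusted p = 0.496) and Cdkn2b (-0.19, adjusted p = 0.353) of the wider pathway list did not pass. Cdkn2c encodes p18, an inhibitor of Cdk4 and Cdk6. It read 6.19, 6.45, 6.63 and 7.07 in scr, 6.17, 6.38, 6.21 and 6.53 in sh14, and 6.39, 6.83, 6.89 and 7.05 in sh133. All 22 h arrays lay above all 1 h arrays. At 22 h it was 0.63 ± 0.11 log2 higher, or 1.55-fold (adjusted p = 0.00415), a call that held with any 1 array left out. The genes most like it were Spc25 (r = 0.961), a kinetochore gene, Tapt1 (0.959) and Mrpl49 (0.953), a mitochondrial ribosomal protein gene.

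Cdkn2c was lower in sh14 than in sh133 at 4 of 4 times, by 0.22 to 0.68. The estimate was -0.57 ± 0.13 log2 (adjusted p = 0.0164). It lost the call without sh14 at 12 h (adjusted p = 0.0955), sh133 at 6 h (0.148) or sh133 at 12 h (0.178). Its 40 neighbours on chromosome 4 had a median of -0.02, with 2 called higher and 4 lower, including the adjacent Rnf11 (-0.56, adjusted p = 0.0188). Over all genes tested, 7.54% were higher and 7.11% lower. Against scr, neither sh14 (-0.47 ± 0.20, adjusted p = 0.260) nor sh133 (0.10 ± 0.13, adjusted p = 0.765) passed.

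Cdkn2d encodes p19, the other INK4 inhibitor here. Scr arrays read 5.55, 5.44, 5.52 and 5.81 at 1, 6, 12 and 22 h, sh14 arrays 6.20, 6.08, 5.86 and 6.65, and sh133 arrays 5.64, 6.09, 6.05 and 6.34. Every hairpin array was above the scr array of its own time, 8 of 8, and the 4 sh14 arrays did not overlap the 4 scr arrays. At 22 h it was 0.47 ± 0.11 log2 higher than at 1 h, or 1.38-fold (adjusted p = 0.0184). This call was lost without sh14 at 22 h (0.43, adjusted p = 0.0561), or without sh133 at 1 h or at 22 h (0.35, adjusted p = 0.140 in each). With the title date set term, sh14 differed from scr by 0.21 ± 0.20 (adjusted p = 0.674) and sh133 by 0.25 ± 0.13 (adjusted p = 0.373). Without that term the differences were 0.62 (adjusted p = 0.00292) and 0.45 (adjusted p = 0.0280). For sh14, which shares no title date set with scr, line and date cannot be told apart directly. At 1 and 22 h, where sh133 and scr share one, Cdkn2d was 0.09 and 0.53 higher in sh133, and a fit of those arrays alone gave 0.31 (adjusted p = 0.501).

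Turning to the D cyclins, Ccnd2 is a growth factor responsive cyclin of blood progenitors. Scr arrays read 8.01, 8.60, 8.49 and 7.67, sh14 arrays 7.90, 8.34, 8.25 and 7.84, and sh133 arrays 7.60, 7.41, 7.50 and 7.38. In scr and sh14 the 6 and 12 h arrays were the highest, whereas sh133 varied by 0.22 over its 4 arrays and lay below both other lines at every time. Over the 3 lines, Ccnd2 was 0.48 ± 0.12 higher at 6 h (adjusted p = 0.0476) and 0.44 ± 0.12 at 12 h (adjusted p = 0.04996). Without the title date set term both calls were lost (0.28, adjusted p = 0.337 at 6 h and 0.24, adjusted p = 0.373 at 12 h). With arrays left out in turn, both held only without scr at 22 h or sh14 at 22 h, with adjusted p of 0.0633 to 0.279 at 6 h and 0.0729 to 0.245 at 12 h for the other 10 arrays. The arrays rose in 2 of 3 lines at each of these times. In the probe set fit none of the 6 Ccnd2 sets above the filter passed at 6 h (adjusted p = 0.0621 to 0.256). At 12 h only the dimmest of them passed (0.63, adjusted p = 0.0267), and the brightest did not (adjusted p = 0.0644). In sh133 the 6 and 12 h arrays differ from the 1 h array in title date set, so its time course and the date cannot be told apart. At 22 h the difference from 1 h was -0.20 ± 0.11 (adjusted p = 0.216), lower in 3 of 3 lines. In the probe set fit, 2 of the 6 Ccnd2 sets above the filter were called lower at 22 h (-0.44, adjusted p = 0.0443 and -0.41, adjusted p = 0.0222), and the other dimmer sets gave -0.30 to -0.32 without passing.

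Ccnd2 was 0.91 ± 0.12 log2 higher in sh14 than in sh133, or 1.88-fold (adjusted p = 0.00107, 95% confidence interval 0.64 to 1.18). At 6 and 12 h, where both lines share a title date set, the differences were 0.93 and 0.76. At 1 and 22 h, where they do not, the differences were smaller, 0.30 and 0.47. Without the title date set term the estimate was 0.61 and was still called (adjusted p = 0.00614), so its size depends on that term. With the term, the call held with any 1 array left out (0.82 to 1.00). In the probe set fit, all 6 Ccnd2 probe sets tested were higher in sh14, by 0.90 to 1.11. Ccnd2 lies on chromosome 6, and its 40 neighbours had a median of 0.36, with 16 called higher and 0 lower. The adjacent genes Tigar (0.17, adjusted p = 0.437) and Parp11 (0.51, adjusted p = 0.193) did not pass. Cell type markers also differed between these lines: 4 of 7 mast cell markers tested were higher in sh14. Of 7 erythroid markers 2 were lower, Alas2 (-2.49) and Slc4a1 (-1.55). Of 4 megakaryocyte markers tested, Itga2b was higher (1.46) and Pf4 lower (-2.34). Over all genes tested, 7.54% were higher and 7.11% lower in this comparison. The part of the neighbours and of these markers in the results between the hairpin lines was not tested.

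Against scr, sh133 was below at 4 of 4 times, by 0.30 to 1.19, and the estimate was -0.43 ± 0.12 (adjusted p = 0.0773). The estimate became -0.54 (adjusted p = 0.0474) without scr at 22 h. Without the title date set term it was -0.73 and was called (adjusted p = 0.00448). In the probe set fit, where 3.19% of sets were called against scr, 2 of the 6 Ccnd2 sets passed (-0.72 and -0.61). For sh14 the arrays and the estimate differ in sign: sh14 was below scr at 3 of 4 times, yet the estimate with the title date set term was 0.48 ± 0.18 (adjusted p = 0.201). The title date set term itself was 0.60 ± 0.16 for Ccnd2 (unadjusted p = 0.00346, adjusted p = 0.868), with 0 of 12673 genes passing for that term and 694 at an unadjusted p under 0.05.

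**Figure D3:**
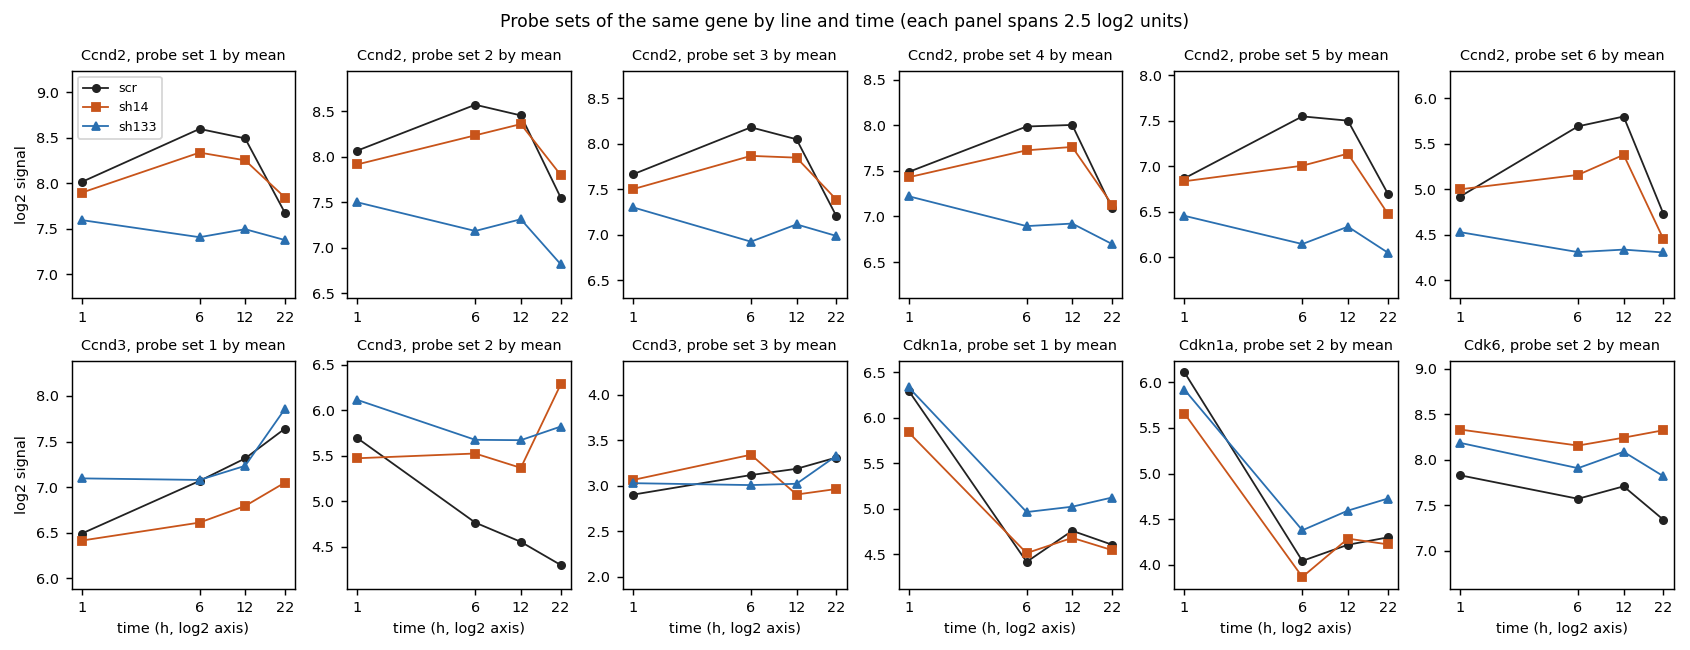
Log2 RMA signal of the several probe sets of single genes over the 12 arrays, by line and time, each panel spanning the same number of log2 units. The Ccnd2 sets above the filter run in parallel, as do those of Cdkn1a, whereas the second Ccnd3 set goes down with time in scr, where the first goes up.

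Ccnd3 is known for setting the number of divisions of maturing red cell precursors. On its brightest probe set (1415907_at) scr read 6.49, 7.07, 7.31 and 7.64, sh14 6.41, 6.61, 6.79 and 7.05, and sh133 7.10, 7.08, 7.23 and 7.86. It was higher at 22 h than at 1 h in 3 of 3 lines, although the sh133 array at 1 h lay above the sh14 array at 22 h. The rise was 0.57 ± 0.12 at 12 h (adjusted p = 0.0220) and 0.85 ± 0.11 at 22 h, or 1.80-fold (adjusted p = 0.000588). The 12 h call was lost without scr at 1 h (adjusted p = 0.0938), scr at 12 h (0.159), sh14 at 12 h (0.0900), or sh133 at 6 h or at 12 h (0.0544 in each).

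The Ccnd3 probe sets disagreed. On the second set (1438805_at), scr read 5.69, 4.77, 4.55 and 4.30, sh14 5.47, 5.52, 5.37 and 6.28, and sh133 6.11, 5.67, 5.67 and 5.82. There scr was highest at 1 h and lowest at 22 h, sh14 was highest at 22 h, and 7 of 8 hairpin arrays lay above scr. This set gave -0.29 ± 0.29 at 22 h (adjusted p = 0.545 with that set taken for the gene), and the mean over the gene's sets gave 0.25 (adjusted p = 0.0781), so the rise of Ccnd3 rests on the brightest set. The remaining set read 2.90 to 3.34.

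Between lines, Ccnd3 on its brightest set was lower in sh14 than in sh133 at 4 of 4 times, by 0.44 to 0.81. The estimate of -0.42 ± 0.13 missed the threshold (adjusted p = 0.0528), and passed without scr at 1 h (-0.47, adjusted p = 0.0115) or sh14 at 1 h (-0.46, adjusted p = 0.0220). It also passed without the title date set term (-0.60, adjusted p = 0.00229). Against scr, sh14 on that set was below at 4 of 4 times, yet the estimate was -0.04 ± 0.19 (adjusted p = 0.948). Without the title date set term it was -0.41 and was called (adjusted p = 0.0196). For sh133 the estimate was 0.37 ± 0.13 (adjusted p = 0.140), without passing. On the second set, sh14 was above sh133 at 1 of 4 times and above scr at 3 of 4. In the probe set fit that set gave -0.20 against sh133 (adjusted p = 0.779) and 0.74 against scr (adjusted p = 0.566). The remaining set gave 0.09 against sh133 (adjusted p = 0.775). The lower Ccnd3 in sh14 thus rests on the brightest set. The genes most like Ccnd3 were Atp6v0e (r = 0.944), a proton pump subunit gene, Car2 (0.938), the red cell carbonic anhydrase gene, and Palb2 (0.928).

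Ccnd1, the third D cyclin, was dim. It read 3.05, 2.81, 2.74 and 3.17 in scr, 2.85, 3.19, 3.25 and 2.98 in sh14, and 2.51, 3.05, 3.20 and 2.89 in sh133. The lines overlapped and no comparison passed. At 22 h the difference was 0.21 ± 0.15 (adjusted p = 0.378). Its other probe sets followed the brightest weakly (r = 0.11 and -0.37).

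Cdk6, the kinase partner of the D cyclins in blood progenitors, was lowest in scr at every time. It read 8.19, 8.00, 8.22 and 7.68 in scr, 8.82, 8.45, 8.64 and 8.68 in sh14, and 8.52, 8.33, 8.63 and 8.19 in sh133. All 8 hairpin arrays lay above the scr array of the same time, and the sh14 arrays did not overlap those of scr. In the fit sh14 exceeded scr by 0.49 ± 0.20 (adjusted p = 0.246), sh133 by 0.33 ± 0.13 (adjusted p = 0.230) and both together by 0.41 ± 0.16 (adjusted p = 0.258), none of which passed. Without the title date set term all were called (0.63, 0.40 and 0.51, adjusted p = 0.000851, 0.0226 and 0.00201), and for sh14, which shares no title date set with scr, line and date cannot be told apart directly. At 1 and 22 h, where sh133 and scr share a title date set, Cdk6 was 0.33 and 0.51 higher in sh133, and a fit of those arrays alone gave 0.42 (adjusted p = 0.251). On the second Cdk6 probe set 8 of 8 hairpin arrays lay above scr, and on the dim remaining set 6 of 8, with sh133 above scr at 2 of 4 times. With time, Cdk6 was lower at 22 h than at 1 h in 3 of 3 lines, but the difference of -0.33 ± 0.12 did not pass (adjusted p = 0.0780). It passed without sh14 at 22 h (-0.46, adjusted p = 0.0202). In the probe set fit, where 14.9% of sets were called at 22 h, the dim remaining Cdk6 set was called lower (-0.43, adjusted p = 0.0316). The second set was not (-0.29, adjusted p = 0.118).

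Of the pocket proteins, Rb1 is the retinoblastoma protein, which binds E2F factors and is needed for normal red cell maturation. It read 7.70, 7.78, 8.11 and 8.49 in scr, 7.63, 7.64, 7.96 and 8.64 in sh14, and 7.56, 7.87, 8.11 and 8.42 in sh133. The 22 h arrays were the 3 highest of the 12 and did not overlap any earlier array. At 22 h Rb1 was 0.89 ± 0.09 log2 higher, or 1.85-fold (adjusted p = 0.000196), a call that held with any 1 array left out. At 12 h it was 0.35 ± 0.10 higher (adjusted p = 0.0704), which passed without sh14 at 22 h (0.37, adjusted p = 0.0432) or without the title date set term (0.43, adjusted p = 0.0182).

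The lines lay close together for Rb1. The difference of sh14 from sh133 was -0.14 ± 0.11 (95% confidence interval -0.38 to 0.09, adjusted p = 0.431). Against scr, Rb1 differed by -0.29 ± 0.16 in sh14 (adjusted p = 0.407) and by -0.15 ± 0.11 in sh133 (adjusted p = 0.535). The genes most like it were Rnf123 (r = 0.963), a ubiquitin ligase gene whose product acts on p27, Epb42 (0.948), a red cell membrane skeleton gene, and Josd2 (0.945). Erythroid markers rose over the same hours: 7 of 7 tested were called higher at 22 h, with a median of 0.95. Of 7 mast cell markers tested, 4 were lower and 1 was higher at 22 h. Over all genes tested, 8.74% were higher and 9.34% lower. The part of these markers in the time results was not tested.

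Rbl2 encodes p130, the pocket protein of resting cells. It read 4.81, 4.79, 4.55 and 4.47 in scr, 3.07, 3.82, 3.65 and 4.14 in sh14, and 4.90, 4.43, 4.38 and 4.07 in sh133. All 4 sh14 arrays lay below all 4 scr arrays, by 0.34 to 1.74 at matched times. Over the hours sh14 ended 1.07 higher and sh133 ended 0.83 lower, and the difference at 22 h over the lines was -0.03 ± 0.27 (adjusted p = 0.953). The estimate for sh14 against scr was -0.83 ± 0.46 (adjusted p = 0.419), and without the title date set term -0.99 (adjusted p = 0.00700). Against sh133 it was -0.69 ± 0.31 (adjusted p = 0.170), and it passed without sh14 at 22 h (-0.84, adjusted p = 0.0279). It also passed without the title date set term (-0.77, adjusted p = 0.0236). The second Rbl2 probe set was dim, at 1.72 to 2.41. On it too sh14 lay below scr and sh133 at every time. In the probe set fit, however, it gave 0.14 for sh14 against scr (adjusted p = 0.815). Against sh133 it gave -0.01 (adjusted p = 0.969), so the lower estimates for sh14 rest on the first set.

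**Figure D4:**
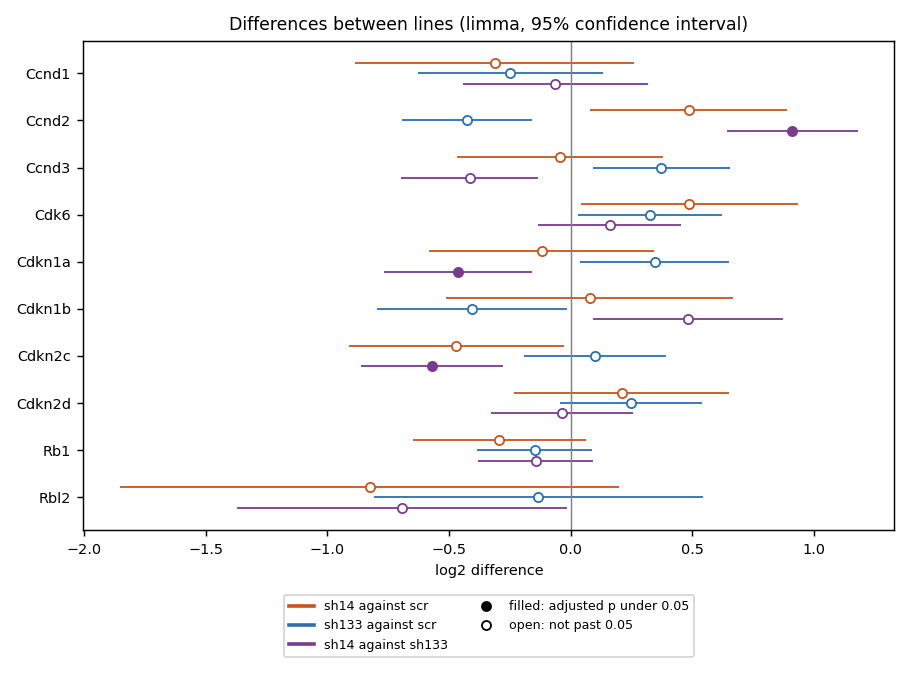
Log2 differences between lines for the 10 genes, sh14 against scr, sh133 against scr and sh14 against sh133, as limma estimates with 95% confidence intervals. Filled points passed an adjusted p of 0.05, which were Ccnd2, Cdkn2c and Cdkn1a in sh14 against sh133; none passed against scr.

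Against scr, 0 of the 10 genes were called by limma in sh14 (3.06% of all genes called, 3 of the 10 at an unadjusted p under 0.05), 0 in sh133 (4.91%, 5 of the 10) and 0 in both hairpin lines together (2.18%, 1 of the 10). These comparisons share the scr arrays. The slope on log2 hours differed between hairpin lines and scr for 0 of the 10 (0.00789% of all genes, 1 of the 10 at an unadjusted p under 0.05). Without the title date set term, 4 of the 10 were called in sh14, 4 in sh133 and 3 in both, while the share of all genes called rose to 23.7%, 12.6% and 16.2%.

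The other genes of the pathway came from a list of 55, of which 53 were tested. This list too was chosen with earlier results of these data known. At 22 h against 1 h, 12 of the 53 were higher and 1 was lower, with a median of 0.21. Of all genes tested, 8.74% were higher and 9.34% lower, with a median of 0.02. The largest rises were in Cdc6, a replication licensing factor (1.19, adjusted p = 0.00194), Ccne1, the cyclin E1 gene (0.68, adjusted p = 0.0417), Foxo3, a transcription factor (0.66, adjusted p = 0.0140), and Rrm2, a ribonucleotide reductase subunit (0.65, adjusted p = 0.0276). Myc, a growth promoting factor, fell (-0.55, adjusted p = 0.0107). Rbl1, the third pocket protein gene, rose by 0.58 (adjusted p = 0.00552), and E2f2 by 0.40 (adjusted p = 0.0405); these genes of the pocket protein and E2F families were picked for mention after their values were seen.

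**Figure D5:**
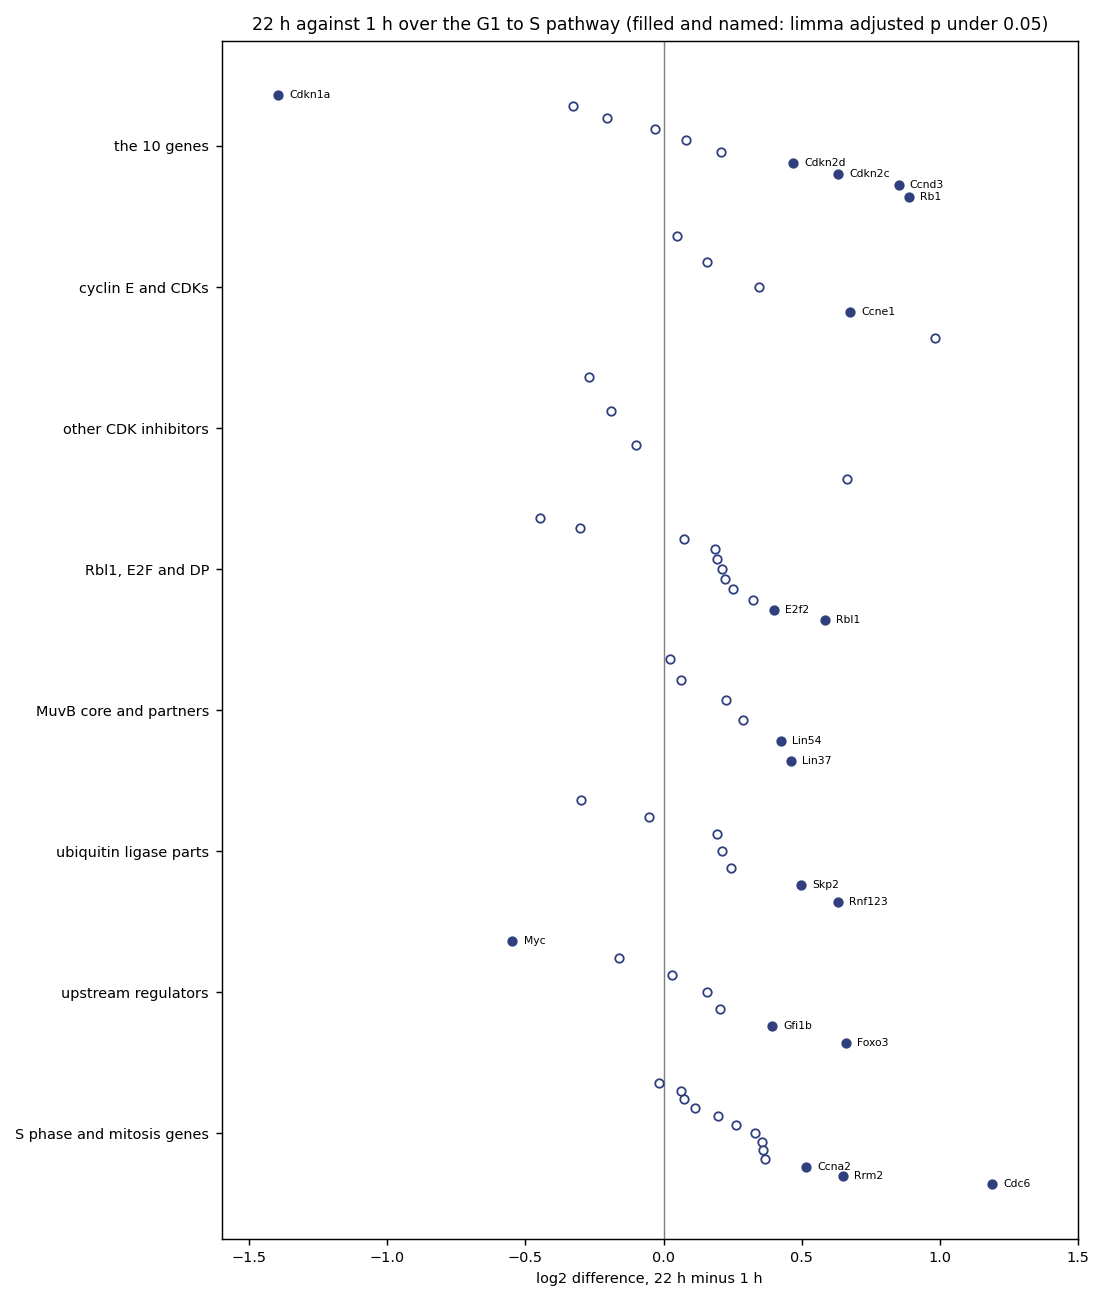
Log2 difference of 22 h from 1 h for the 10 genes and the 53 tested genes of the wider pathway, 1 point per gene, grouped by role. Filled, named points passed an adjusted p of 0.05: 5 of the 10 genes, and 12 higher and 1 lower of the 53. Of all genes tested, 18.1% passed.

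Between the hairpin lines, 2 of the 53 were higher in sh14 and 7 lower, where 14.6% of all genes were called (7.54% higher and 7.11% lower). Cdkn2b, an INK4 inhibitor, was higher by 0.91 (adjusted p = 0.00321), at 4 of 4 times. Fbxw7, a ubiquitin ligase part that acts on cyclin E, was higher by 0.38 (adjusted p = 0.0395). E2f7 (-0.99, adjusted p = 0.0189), E2f3 (-0.90, adjusted p = 0.00418), Lin9, a subunit of the MuvB core (-0.77, adjusted p = 0.0344), and Cks1b, a CDK cofactor (-0.74, adjusted p = 0.00273), were lower. Of these, E2f3, Lin9 and Cks1b were lower at 4 of 4 times, whereas E2f7 was higher in sh14 at 1 h. E2f3 lies on chromosome 13, where 14 of its 40 neighbours were lower and 0 higher in the same comparison.

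Against scr, sh133 had 1 of the 53 higher and 5 lower, where 4.91% of all genes were called. Cdk2, the cyclin E partner, was higher by 0.55 (adjusted p = 0.0467). Cdkn2b (-1.10, adjusted p = 0.00294), Cdkn1c, the third CIP/KIP inhibitor (-1.06, adjusted p = 0.0196), Cdk4, the other D cyclin partner (-0.75, adjusted p = 0.00713), and Lin52 of the MuvB core (-0.64, adjusted p = 0.0231) were lower, each at 4 of 4 times. In sh14, 1 of the 53 was lower, Mdm2 (-0.86, adjusted p = 0.0263), where 3.06% of all genes were called. Over both hairpin lines, where 2.18% of all genes were called, 4 were lower: Cdkn1c (-1.14), Lin52 (-0.73), Mdm2 (-0.72) and Cdk4 (-0.70). Mdm2 and Cdk4 both lie on chromosome 10, each with 40 neighbours. For Mdm2, 12 neighbours were lower and 2 higher in sh133, and 9 lower and 0 higher in sh14. For Cdk4, 11 were lower and 4 higher in sh133, and 1 lower and 1 higher in sh14. For Lin52, on chromosome 12, 12 of 40 neighbours were lower and 0 higher in sh133, with a median of -0.44. Their part in these results was not tested.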

How the data were processed

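The deposited series table holds log2 values. RMA is the method that the submitters' processing notes name, with no version. The arrays agreed in scale to within 0.295 log2 at every quantile. The number of arrays limits the precision. Genes were assigned from GEO's platform annotation (34958 with 1 gene, 932 with several, 9211 with none) and symbols matched to a RefSeq table (GRCm38.p6, 34754 matched). Genes were represented by their brightest probe set and kept if its mean passed the 40th percentile of probe set means (1.45), leaving 12673. The limma package (3.58.1, R 4.3.3) fitted line, time and title date set with eBayes over the 12 arrays, with Benjamini-Hochberg adjustment and a threshold of 0.05, and was tested on simulated data. Named pathway genes are up to 4 per direction with the largest change. Like genes are the 3 with the highest Pearson r. The members and lists were chosen with earlier results of these data known. Alternatives changed the filter, the probe set rule, the scaling, the variance model, the title date set term, the time term and the arrays used.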

Additional observations from a re-analysis of the deposited data

Results flagged for a closer look

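Cdkn1a in sh14 had 1 array far from the other 3: 5.84 at 1 h against a nearest value of 4.68, a gap of 0.873 of the line's whole range. Cdkn1a in sh133 showed the same, with 6.33 at 1 h against 5.12 and a gap of 0.883 of the range. Both gaps exceed the 95% critical value of Dixon's test for 4 arrays. In all, 30 gene and line groups were looked at, of which chance sets apart about 1 in 20. Both arrays are those at 1 h, and the 4 arrays of a line are different times rather than repeats. In scr the 1 h array also stood highest (6.29 against a nearest value of 4.76), without being flagged.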

How the results depend on the processing

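Counts are of the 10 genes called, and percentages are the share of all genes called in the same setting. Without the title date set term, the counts against scr were 3 for both hairpins (16.2%), 4 for sh14 (23.7%) and 4 for sh133 (12.6%). They were 6 for sh14 against sh133 (24.7%) and 1 at 6 h (7.46%). Ccnd2 over both hairpins then reversed to -0.42. For sh133 against scr, the mean over probe sets gave 2 (4.51%), the probe set of largest variance 1 (4.22%) and an intensity trend 1 (5.60%). For sh14 against sh133, using 6 and 12 h alone gave 6 (18.7%). Dropping the filter (9.65%) or taking the most variable set (13.7%) each gave 2 there, since Cdkn1a then missed (adjusted p = 0.0553 and 0.0675). At 6 h, dropping the filter (3.14%), averaging probe sets (4.01%), taking the most variable set (5.37%) or centring arrays on their medians (4.36%) each gave 1. At 12 h the most variable set gave 1 (7.31%). With that set Ccnd3 reversed to -0.59 at 12 h and -0.29 at 22 h, since the rule then picks the disagreeing probe set. The cause was otherwise not tested. Leaving out each array in turn gave 0 to 1 for sh133 against scr (1.07% to 5.79%) and 1 to 5 for sh14 against sh133 (3.08% to 17.4%). It gave 1 to 2 at 6 h (0.765% to 5.76%), 1 to 4 at 12 h (1.74% to 8.76%) and 4 to 5 at 22 h (9.04% to 17.9%). No paired analysis was possible because the replicate numbers only follow the order of deposit; matched hours enter through the time term. With 1 array per line and time, a difference that varies with time within 1 line has no replicate check.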

Other observations

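Of 14 genes that mark S phase and mitosis, 13 were tested as a further group of the same pathway list. At 22 h against 1 h, 3 were higher and 0 lower (Cdc6, Rrm2 and Ccna2), with a median of 0.33 against 0.02 over all genes tested. Of all genes, 18.1% were called in that comparison (8.74% higher and 9.34% lower). In sh14 against sh133, 2 were lower and 0 higher, Mki67 (-0.60, adjusted p = 0.0135) and Pcna (-0.45), with a median of -0.41. There 14.6% of all genes were called (7.54% higher and 7.11% lower). Against scr 0 were called by limma in either hairpin line, with 3 at an unadjusted p under 0.05 in sh14 and 0 in sh133. Of all genes, 3.06% were called in sh14 and 4.91% in sh133.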
